A study of Mus musculus with 9 samples.

Results

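Siglecs are cell surface lectins that bind sialic acid, the acidic sugar that caps many glycans on vertebrate cells. The 4 Siglec genes described here, Siglec1, Cd33, Siglece and Siglech, were chosen by their symbols from the 53465 genes of the deposited count table, and all 4 were expressed well enough to be tested. Their messenger RNA was sequenced in 9 mouse libraries, 3 in each of 3 groups. Lining macrophages (libraries A, B and C) were sorted by flow cytometry as CD45+CD11b+F4/80+GFP+ cells from the synovium of hind paws of healthy Cx3cr1-GFP mice, in which the locus of the fractalkine receptor Cx3cr1 drives green fluorescent protein (GFP). Interstitial macrophages (libraries D, E and F) were the CD45+CD11b+F4/80+GFP- cells of the same tissue and strain. Bone marrow-derived macrophages (BMDM, libraries G, H and I) came from the marrow of C57BL/6 mice, cultured over 5 days with conditioned medium that supplied macrophage colony-stimulating factor (MCSF), with no sort given. The joint groups and BMDM thus differ in tissue, strain and handling at once, and these cannot be told apart. The age of the mice and the number of GFP alleles are not given in the sources used here, and the labels do not say whether the libraries of a group came from separate animals or cultures, so p-values measure the spread between these libraries only.

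Sialic acid on a cell's own surface is read by inhibitory Siglecs, which carry tyrosine motifs in the tail that recruit the phosphatases encoded by Ptpn6 and Ptpn11 and dampen activation. Other Siglecs pair with the activating adaptor encoded by Tyrobp. Siglec1 (sialoadhesin, CD169) is the long, adhesive member without such inhibitory motifs, it marks macrophages of lymphoid and other tissues, and its transcription is raised by type I interferon. Cd33 is the mouse gene named after human CD33, a marker of myeloid cells. Siglece encodes an inhibitory receptor of mouse neutrophils, monocytes and macrophages. Siglech encodes a Tyrobp-coupled receptor known from plasmacytoid dendritic cells and from microglia.

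Library totals ranged from 2194920 to 11137451 counts in lining, from 2238261 to 10807462 in interstitial and from 19427273 to 22499823 in BMDM, so single values of weakly expressed genes are least precise in libraries A, C and D. A floor of 3 counts corresponded to 0.286 to 1.45 CPM in lining libraries, 0.272 to 1.33 CPM in interstitial libraries and 0.130 to 0.149 CPM in BMDM (CPM, counts scaled to library size, with totals adjusted by trimmed mean of M values, TMM), and it covers counting error only. Transcripts of the macrophage genes Csf1r and Adgre1 were abundant in every library. Csf1r lay between 5198 and 6338 CPM in lining, between 4050 and 6797 CPM in interstitial and between 2459 and 2625 CPM in BMDM. Cx3cr1, whose locus set the sort, lay between 662 and 774 CPM in lining and between 2.66 and 7.84 CPM in interstitial.

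Of the 4 genes, Cd33 (ENSMUSG00000004609, chromosome 7, 43524216 to 43544428, minus strand), Siglece (ENSMUSG00000030474, chromosome 7, 43651070 to 43660161, minus strand) and Siglech (ENSMUSG00000051504, chromosome 7, 55768178 to 55778925, plus strand) lie on one chromosome, and Siglec1 (ENSMUSG00000027322, chromosome 2, 131069220 to 131086765, minus strand) on another. Starts and ends are taken from the first and last exon bases that the deposited table lists (GRCm38). No exon of these genes overlapped an exon of another gene on either strand, and 0 of the 101-base windows of each gene's longest annotated transcript occurred in a transcript of another gene, so exact read sharing between Siglec paralogs did not limit these counts. The RefSeq table of GRCm38.p6 promoters held 3 of the 4 genes. The 250 bases before the RefSeq start are shown for these 3, Cd33, Siglece and Siglech, and Siglec1 had no entry. Capitals mark GAGGAA, the core bound by the myeloid factor PU.1, and TTNNGNAA, a pattern of C/EBP factors, each searched on both strands.
Siglece promoter, chr7:43660162-43660411, minus strand: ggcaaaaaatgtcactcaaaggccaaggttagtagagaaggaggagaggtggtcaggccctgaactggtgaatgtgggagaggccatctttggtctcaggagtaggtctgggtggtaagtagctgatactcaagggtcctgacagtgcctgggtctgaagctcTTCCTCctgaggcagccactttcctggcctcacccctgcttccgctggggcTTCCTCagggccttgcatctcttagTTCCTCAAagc
Cd33 promoter, chr7:43533172-43533421, minus strand: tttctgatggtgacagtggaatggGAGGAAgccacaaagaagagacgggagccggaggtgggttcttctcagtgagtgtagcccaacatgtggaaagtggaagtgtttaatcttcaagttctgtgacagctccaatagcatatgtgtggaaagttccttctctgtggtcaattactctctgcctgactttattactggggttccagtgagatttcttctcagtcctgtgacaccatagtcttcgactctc
Siglech promoter, chr7:55767934-55768183, plus strand: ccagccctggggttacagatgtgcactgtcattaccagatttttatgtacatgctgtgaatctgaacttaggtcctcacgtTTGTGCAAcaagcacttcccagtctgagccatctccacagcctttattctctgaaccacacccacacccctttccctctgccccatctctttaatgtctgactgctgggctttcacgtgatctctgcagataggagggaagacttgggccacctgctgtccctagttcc
The Siglece promoter held GAGGAA 3 times, all on the opposite strand, the nearest 6 to 11 bases before the start, and the Cd33 promoter held it once, 221 to 226 bases before the start. The Siglech promoter held no GAGGAA and 1 TTNNGNAA match, and the single TTNNGNAA match of Siglece overlapped its nearest GAGGAA. Of 32851 RefSeq promoters of this length 23.3% held GAGGAA and 36.8% held TTNNGNAA, so these matches are common and describe the letters only. The interferon response core (GAAA, any 2 bases, GAAA), held by 2.98% of promoters, was not found in the 3 windows. The RefSeq start of Cd33 lies within the span of exons in the deposited table, so other transcripts of Cd33 may start elsewhere.

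**Figure D1:**
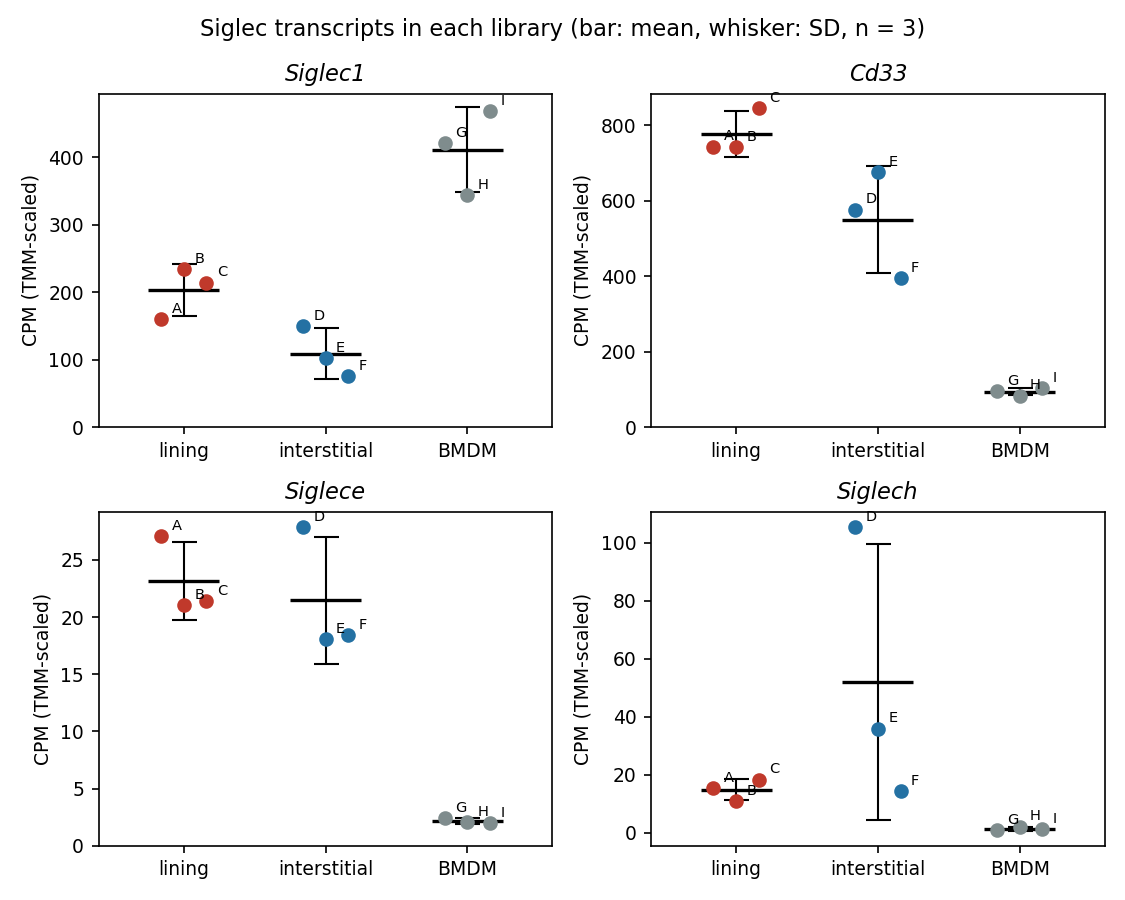
TMM-scaled CPM (vertical axis, from 0, a different scale in each panel) of Siglec1, Cd33, Siglece and Siglech in every lining, interstitial and BMDM library, with the mean as a bar and the SD as a whisker (n = 3 per group). Siglec1 is highest in BMDM, while Cd33, Siglece and Siglech are lowest there, and interstitial library D stands above E and F for Siglech.

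Cd33, Siglece and Siglech were higher, and Siglec1 lower, in both joint groups than in BMDM. All 4 genes were called in lining against BMDM, 3 higher and 1 lower, where 43.5% of all tested genes were called (23.1% higher and 20.5% lower). The same counts, 4 called with 3 higher and 1 lower, held in interstitial against BMDM, where the background was 44.8% (23.4% higher and 21.3% lower). In lining against interstitial 1 of 4 was called, Siglec1, where 5.79% of all tested genes were called (3.74% higher and 2.05% lower). The median log2 fold change of the 4 genes was 3.18, 2.93 and 0.31 in these 3 comparisons, beside 0.00014, -0.012 and -0.011 over all tested genes. With 4 genes these counts are a description and no test of Siglecs as a group.

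**Figure D2:**
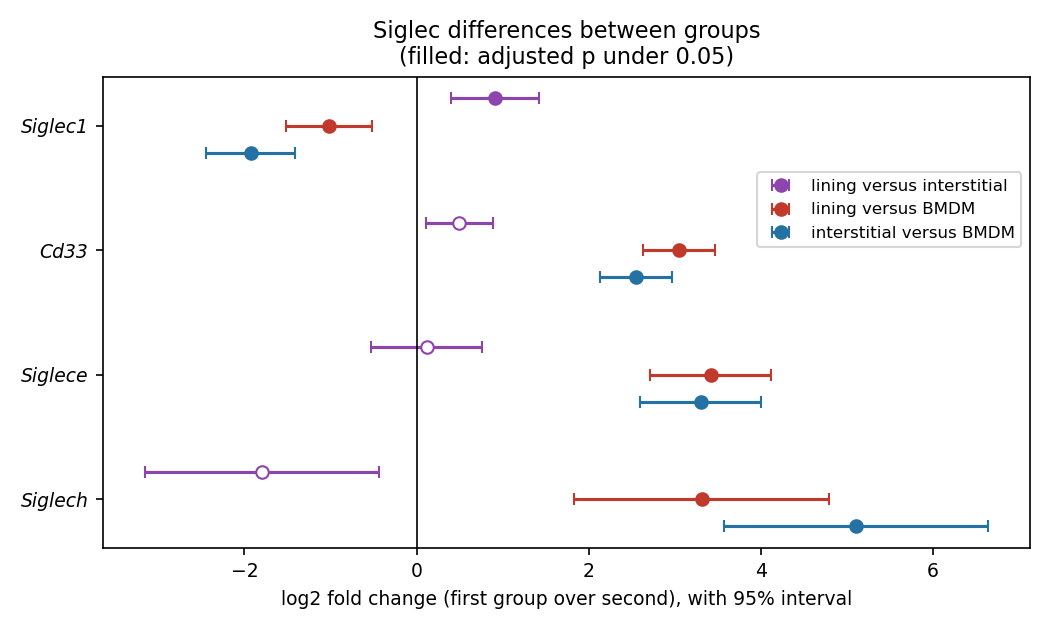
Log2 fold changes (horizontal axis, first named group over the second) of the 4 Siglec genes with 95% intervals from the edgeR fit of all 9 libraries; filled points passed at an adjusted p under 0.05. All 8 differences of a joint group from BMDM passed, 3 genes to the right of 0 and Siglec1 to the left, while between lining and interstitial Siglec1 alone passed.

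Siglec1, the adhesive member, was lower in joint macrophages than in cultured ones, against the direction of the other 3 genes. It had 160, 234 and 214 CPM in lining A, B and C, 149, 102 and 75.2 CPM in interstitial D, E and F, and 421, 344 and 469 CPM in BMDM G, H and I. The 3 groups did not overlap, with BMDM highest, lining in the middle and interstitial lowest. Lining was 2.02-fold lower than BMDM (203 ± 38.4 against 411 ± 63.1 CPM, mean and SD of 3 libraries each, with a log2 fold change of -1.02 ± 0.23 SE and an adjusted p of 0.00371 by edgeR's quasi-likelihood test). Interstitial was 3.80-fold lower than BMDM (-1.93 ± 0.24, 109 ± 37.4 against 411 ± 63.1 CPM, adjusted p = 4.10e-05). These 2 comparisons share the BMDM libraries. Set against each other, lining was 1.88-fold higher than interstitial (0.91 ± 0.23, 95% interval 0.40 to 1.42, adjusted p = 0.0413). That call was close to the threshold. It was lost without any single one of A, B, C, E, F, G, H or I (adjusted p from 0.0529 to 0.158, log2 fold change 0.68 to 1.04), with library totals in place of TMM (0.0627) and with only the 6 sorted libraries in the fit (0.0743), while it passed by DESeq2 (0.00841) and limma-voom (0.00899). Of 9 macrophage markers, 2 were called higher and 0 lower in lining against interstitial, beside 3.74% and 2.05% of all genes, and 7 did not pass. By edgeR 5 of the 9 had an unadjusted p under 0.05, and DESeq2 and limma-voom called 4 each. Cd68, a lysosomal membrane protein, was higher by 0.82 on the log2 scale, and the Fc receptor gene Fcgr1 by 1.04, a call lost without A, B, C or I (adjusted p up to 0.108). The summed level of the 9 was 24150 to 30772 CPM in lining against 13883 to 23348 CPM in interstitial. The part of these markers in the Siglec1 difference was not tested, and in bulk RNA fewer cells of a type and less RNA per cell cannot be told apart.

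Genes induced by type I interferon, which also raises Siglec1, were lower in both joint groups than in BMDM. Of 12 such genes 9 were called lower in lining and 8 lower in interstitial, with 0 called higher. Over all tested genes 20.5% and 21.3% were called lower, and 23.1% and 23.4% higher. The median log2 fold change of the 12 was -2.36 and -2.42, beside a median of 0.00014 and -0.012 over all 12610 genes tested. Isg15, a ubiquitin-like protein, had 0, 5.53 and 0.750 CPM in lining, 0, 4.27 and 4.02 CPM in interstitial, and 46.5 to 53.4 CPM in BMDM. Irf7, the transcription factor that amplifies interferon expression, was lower by 2.27 in lining and 2.67 in interstitial on the log2 scale, with 19.8 to 33.4 CPM in lining and 9.74 to 25.6 CPM in interstitial against 116 to 127 CPM in BMDM. Mx1, an antiviral GTPase, did not pass, with 0.968 to 17.3 CPM in lining and 9.74 to 29.2 CPM in interstitial against 8.88 to 10.4 CPM in BMDM. The summed level of the 12 genes was 94.9, 247 and 132 CPM in lining A to C, 115, 219 and 152 CPM in interstitial D to F, and 737.1 to 790 CPM in BMDM. Within the interstitial group the orders differed, since library D had the most Siglec1 and the least interferon-induced RNA. Between lining and interstitial edgeR called 0 of the 12, beside 5.79% of all tested genes, and 0 had an unadjusted p under 0.05. DESeq2 and limma-voom also called 0. The part of interferon-induced transcription in the Siglec1 levels was not tested.

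**Figure D3:**
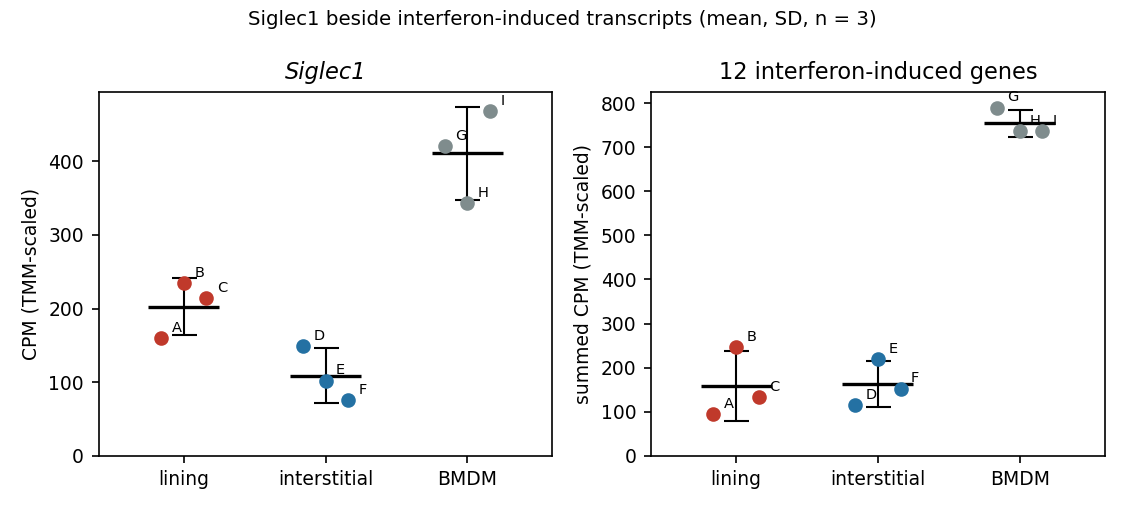
Siglec1 (left) and the sum of 12 interferon-induced genes (right), both in TMM-scaled CPM, in each lining, interstitial and BMDM library, with mean and SD (n = 3 per group). Both are highest in the 3 BMDM libraries; lining and interstitial are apart for Siglec1 (160 to 234 against 75.2 to 149 CPM) and overlap for the interferon-induced sum.

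Cd33, the myeloid marker, was far higher in the joint than in culture. Its level was 744, 742 and 846 CPM in lining A, B and C, 577, 677 and 396 CPM in interstitial D, E and F, and 95.3, 83.6 and 103 CPM in BMDM G, H and I. Every joint library lay above every BMDM library, and every lining library above every interstitial one. Lining was 8.28-fold higher than BMDM (3.05 ± 0.19, 777 ± 59.8 against 93.9 ± 9.67 CPM, adjusted p = 1.81e-07) and interstitial 5.86-fold higher (2.55 ± 0.19, 549.8 ± 142 against 93.9 ± 9.67 CPM, adjusted p = 6.78e-07). Between lining and interstitial Cd33 did not pass, with a log2 fold change of 0.50 ± 0.18 and a 95% interval of 0.11 to 0.89 (unadjusted p = 0.0172, adjusted p = 0.148). Without interstitial F, the lowest joint library, the log2 fold change was 0.28 (adjusted p = 0.26).

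Siglece, the inhibitory receptor, was high in the joint and scarce in culture. It had 27.1, 21.1 and 21.4 CPM in lining A, B and C, 27.9, 18.1 and 18.4 CPM in interstitial D, E and F, and 2.42, 2.04 and 1.98 CPM in BMDM G, H and I. The joint groups overlapped fully and neither overlapped BMDM. Lining was 10.7-fold higher than BMDM (3.42 ± 0.32, 23.2 ± 3.41 against 2.15 ± 0.239 CPM, adjusted p = 4.93e-06). Interstitial was 9.85-fold higher than BMDM (3.30 ± 0.32, 21.5 ± 5.57 against 2.15 ± 0.239 CPM, adjusted p = 5.96e-06). These values rest on 56 to 221 counts in lining, 63 to 199 in interstitial and 41 to 56 in BMDM libraries. The difference between lining and interstitial was 0.12 ± 0.30 with a 95% interval of -0.53 to 0.77 (adjusted p = 0.876). Neutrophil markers, measured because neutrophils carry Siglece, summed to 2.42 to 43.1 CPM in lining, 55.3 to 186 CPM in interstitial and 35.0 to 42.7 CPM in BMDM. Of the 8, 5 passed the filter, with 1 called higher and 2 lower in lining against BMDM, and 1 higher and 0 lower in interstitial against BMDM. In lining against interstitial edgeR called 0 of them, with 3 at an unadjusted p under 0.05, and DESeq2 and limma-voom called 1 each. Of all tested genes edgeR called 43.5%, 44.8% and 5.79% in these 3 comparisons. Ly6g was at 0 in lining and at most 0.212 CPM in interstitial, whereas the protease gene Mmp9 was higher than in BMDM by 4.57 in lining and 6.44 in interstitial on the log2 scale, and Cxcr2 reached 7.20 CPM in interstitial F. S100a9 and Ltf were lower than in BMDM in lining (-3.80 and -4.14) and did not pass in interstitial (-1.12 and -1.10). S100a8 (-2.91 in lining and -0.59 in interstitial) and Camp (-0.77 and 0.74) passed in neither. The part of neutrophils in the Siglece levels was not tested.

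Siglech was higher in both joint groups than in BMDM and varied most within the interstitial group, with a coefficient of variation of 91.6%. It had 15.5, 11.0 and 18.4 CPM in lining A, B and C, 105, 36.0 and 14.4 CPM in interstitial D, E and F, and 0.950, 2.18 and 1.29 CPM in BMDM G, H and I. Interstitial D stood far above E and F, and F lay among the lining libraries, while BMDM lay below every joint library. Lining was 9.92-fold higher than BMDM (3.31 ± 0.67, 14.9 ± 3.73 against 1.47 ± 0.637 CPM, adjusted p = 0.00240). Interstitial was 34.4-fold higher (5.11 ± 0.69, 51.9 ± 47.5 against 1.47 ± 0.637 CPM, adjusted p = 1.55e-04), and without library D its log2 fold change was 4.08. Lining against interstitial had a log2 fold change of -1.79 ± 0.62 with a 95% interval of -3.15 to -0.43 and did not pass (adjusted p = 0.133). The value was -0.82 without D, and -2.28 without F, where it passed (adjusted p = 0.0164).

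Markers of the cells best known for Siglech were set beside it. Of 12 plasmacytoid dendritic cell markers 7 passed the filter. In lining against BMDM 4 were called higher and 0 lower, and in interstitial against BMDM 4 higher and 1 lower. In lining against interstitial 2 were called higher and 0 lower (0 without A or E). Of all tested genes 43.5%, 44.8% and 5.79% were called in these comparisons. The marker sum, at 686 to 901 CPM in lining, 464 to 571 CPM in interstitial and 213 to 229 CPM in BMDM, was mostly Lair1 and Tcf4, which macrophages also express. Tcf4 was called higher than in BMDM by 1.61 in lining and 1.53 in interstitial on the log2 scale, and Lair1 by 1.97 and 1.10. Lair1 was also called higher in lining than in interstitial (0.87), a call lost without A or E. Atp1b1, a sodium pump subunit, was higher than in BMDM by 4.07 in lining and 3.02 in interstitial on the log2 scale, at 4.10 to 38.3 CPM in lining and 4.54 to 13.6 CPM in interstitial against 0.691 to 1.39 CPM in BMDM. Cox6a2, a respiratory chain subunit, was higher by 3.33 in lining (a call lost without H or I) and 2.48 in interstitial (lost without D, F, G, H or I, adjusted p up to 0.180). Runx2 went the other way in interstitial, lower than in BMDM (-3.05, adjusted p = 0.00399 by edgeR), and did not pass in lining (-0.068). It was called higher in lining than in interstitial (2.99), a call lost without A, B, E, F, G, H or I. Ly6c2 and Rpgrip1 did not pass in any comparison. Other markers were at or near 0 in the joint. Ccr9, Klk1 and Spib had no count in lining and at most 0.212, 0.0908 and 1.06 CPM in interstitial. In interstitial D, which had 105 CPM of Siglech, 6 of the 12 had 0 counts at a floor of 1.33 CPM, and Atp1b1 had 10.6 CPM, Cox6a2 2.21 CPM, Tcf4 226 CPM and Lair1 220.0 CPM. The part of plasmacytoid dendritic cells in the Siglech levels was not tested. Of 10 genes used as microglia markers 8 passed the filter. In lining against BMDM 7 were called higher and 0 lower, and in interstitial against BMDM 3 higher and 1 lower. In lining against interstitial 3 were called higher and 0 lower. The shares over all tested genes were again 43.5%, 44.8% and 5.79%. The 10 markers summed to 3979 to 5186 CPM in lining, 799 to 1523 CPM in interstitial and 781 to 851 CPM in BMDM. The defining genes Sall1 and Slc2a5 reached at most 2.90 and 0.212 CPM in any library, Slc2a5 being at 0 in lining. The purinergic receptor genes P2ry12 and P2ry13 and the lysophosphatidylserine receptor gene Gpr34 lay between 66.3 and 510 CPM in the joint libraries and between 0.0461 and 7.43 CPM in BMDM.

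Per length of annotated exon, Cd33 made up most of the 4 Siglecs in joint macrophages and Siglec1 most of them in cultured ones. Levels per length were counted as RPKM (CPM per kilobase of exon). Exon length pools all annotated exons of a gene, 7143 bases for Siglec1, 7771 for Cd33, 1849 for Siglece and 3383 for Siglech. Their longest transcripts have 6387, 5728, 1849 and 2301 bases, so shares and close orders depend on the length used. Cd33 made up 68.8 ± 1.72% of the summed RPKM of the 4 genes in lining, 63.8 ± 9.97% in interstitial and 17.0 ± 0.655% in BMDM (SD, n = 3 each). Siglec1 made up 19.5 ± 3.33% in lining, 13.5 ± 1.57% in interstitial and 80.7 ± 1.20% in BMDM. In all 3 lining libraries the order was Cd33, Siglec1, Siglece, Siglech, and in all 3 BMDM libraries Siglec1, Cd33, Siglece, Siglech. The interstitial libraries had Cd33 first and no common order after it. In D the RPKM of Siglech was 31.1, above Siglec1 at 20.9 and Siglece at 15.1, whereas in F Siglec1 had 10.5, Siglece 9.97 and Siglech 4.26. The share of Siglech was 22.03% in D, 8.73% in E and 5.63% in F, 2.27 to 3.48% in lining and 0.386 to 1.07% in BMDM. The summed RPKM was 145 ± 9.54 in lining, 113 ± 33.7 in interstitial and 71.2 ± 9.94 in BMDM.

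**Figure D4:**
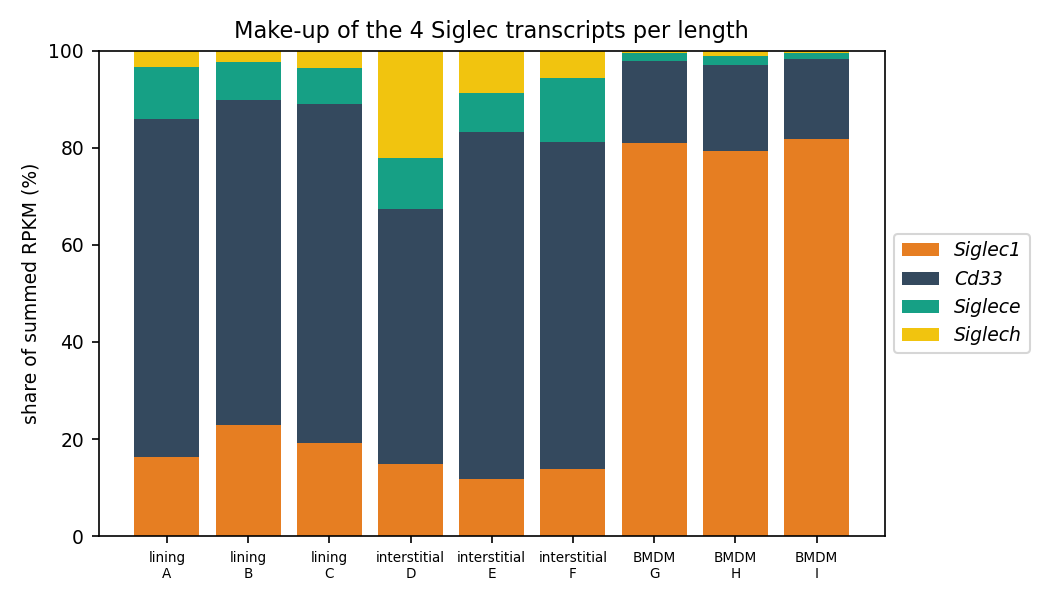
Share (%) of the summed RPKM of the 4 genes taken by Siglec1, Cd33, Siglece and Siglech in each lining, interstitial and BMDM library, as stacked bars. Cd33 fills 52.5 to 71.5% of the joint libraries and Siglec1 79.4 to 81.7% of the BMDM libraries, and Siglech is widest in interstitial D.

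For each Siglec the 5 genes with the most similar profile were found by the root mean square difference of centred log2 CPM over the 9 libraries. Closest to Siglec1 were 2900026A02Rik, the lipid transfer gene Vps13c, Fgd3, Utp23 and Dzip3, at differences of 0.25 to 0.29, where the median over tested genes was 1.03. Cd33 was closest to Fchsd2, Rin2, Ttc39b, Etl4 and the matrix protein gene Tgfbi, at 0.13 to 0.25 (median 1.52). Siglece was closest to Rab11fip5, the folate receptor gene Folr2, the glutamine synthetase gene Glul, the basement membrane gene Nid2 and Prune2, at 0.18 to 0.21 (median 1.70). Folr2 averaged 988 CPM in lining, 898 CPM in interstitial and 101 CPM in BMDM, which gives log2 differences from BMDM of 3.28 and 3.15. For Siglech both the differences to the nearest genes and the median over tested genes were larger than for the other 3 Siglecs. Its nearest were the lectin genes Clec4n and Clec4a1, the selenoprotein gene Selenop, Gm44751 and the sulfotransferase gene Chst7, at 0.53 to 0.61 (median 2.19). Likeness here is a description over 9 libraries that differ in depth.

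The other genes of the family were weakly expressed. Of 5 listed, 4 passed the filter, and Siglec15, a receptor of osteoclasts, did not. Siglecg, an inhibitory receptor of B cells, had 0, 0.953 and 0 CPM in lining, 3.10, 10.5 and 18.0 CPM in interstitial, and 0.216 to 0.447 CPM in BMDM. It was lower in lining than in interstitial (-4.38 ± 1.01, 0.318 ± 0.550 against 10.5 ± 7.45 CPM, adjusted p = 0.0251), a call lost without A, C, E or F (highest adjusted p = 0.0782) and resting on 10 lining counts, all in library B, so that lining held 0 counts without it. It was higher in interstitial than in BMDM (4.99 ± 0.95, adjusted p = 0.00118, and 4.36 without F). Siglecg could pass the filter only through the interstitial libraries, so the direction of both calls was set in advance. B cell markers summed to 69.2 to 96.3 CPM in lining, 382, 229 and 141 CPM in interstitial D, E and F, and 21.5 to 21.99 CPM in BMDM. Within interstitial their order was the reverse of that of Siglecg. Of the 9 markers, 4 passed the filter. In lining against interstitial 1 was called lower and 0 higher (0 without A). In lining against BMDM 3 were called higher and 0 lower (2 to 6 higher without single libraries). Siglecg did not pass there (0.61, adjusted p = 0.656 by edgeR). In interstitial against BMDM 4 were called higher (3 to 8 without single libraries). Of all tested genes 5.79%, 43.5% and 44.8% were called in these comparisons. Most of the B cell marker sum was Ighm, while Cd79a reached at most 3.39 CPM in any library. Interstitial D had the most Ighm, 368 CPM, and the least Siglecg of its group. The part of B cells in the Siglecg result was not tested.

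Siglecf, known from eosinophils and alveolar macrophages, had 0, 0.477 and 2.25 CPM in lining, 0, 6.90 and 14.0 CPM in interstitial, and 1.17 to 1.49 CPM in BMDM, and did not pass in any of the 3 comparisons (adjusted p = 0.209 in lining against interstitial, 0.733 in lining against BMDM and 0.0893 in interstitial against BMDM). Eosinophil markers summed to 10.2, 8.58 and 14.6 CPM in lining, 3.54, 19.3 and 43.4 CPM in interstitial and 0.605 to 0.695 CPM in BMDM. Of these 8 markers 3 passed the filter, and 2 were called higher in lining and 3 in interstitial against BMDM, where without G 1 was called in each. Over all tested genes 23.1% and 23.4% were called higher. Cd22, another inhibitory B cell receptor, lay between 0 and 4.88 CPM and did not pass. Mag, the myelin-associated glycoprotein, was called lower in lining (-3.22 ± 1.05) and interstitial (-3.66 ± 1.09) than in BMDM at 0 to 0.762 CPM in lining and 0 to 0.636 CPM in interstitial against 2.98 to 4.51 CPM in BMDM. Mag could pass the filter only through the BMDM libraries, so the direction of both calls was set in advance. These calls were lost for lining without any of A, C, G, H and I (adjusted p up to 0.102) and for interstitial without any of E, G, H and I (up to 0.0813), and the lining value was -8.40 without B and the interstitial value -4.68 without F.

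Genes that pass on Siglec signals were also compared. Tyrobp, the adaptor of Siglech, was at 828, 761 and 581 CPM in lining, 607, 419 and 460.5 CPM in interstitial, and 671 to 719 CPM in BMDM. It was called lower in interstitial than in BMDM (-0.48, adjusted p = 0.0356), a call lost if any of E, F, G, H and I was left out (adjusted p up to 0.114), and did not pass in the other comparisons. Ptpn6, the phosphatase bound by inhibitory Siglecs, was lower in interstitial than in BMDM (-0.77, 260 ± 24.9 against 444 ± 5.31 CPM, adjusted p = 7.84e-04). Its level in lining was 317 to 412 CPM, called higher than interstitial (0.55, adjusted p = 0.0396), a call lost if any library but C and E was left out (adjusted p up to 0.136). Inpp5d, a lipid phosphatase of inhibitory signalling, was higher in lining than in interstitial (0.94, adjusted p = 0.00172) and than in BMDM (1.10, adjusted p = 5.80e-05). Hcst, another small adaptor, was higher than in BMDM in lining (2.01) and interstitial (2.20). Of the 6 genes listed, 2 were higher and 0 lower in lining against BMDM, 1 higher and 2 lower in interstitial against BMDM, and 2 higher and 0 lower in lining against interstitial, or 1 higher without A, B, F, G, H or I (median 0.090, 0.23 and 0.18 on the log2 scale). Of all tested genes 43.5%, 44.8% and 5.79% were called in these comparisons. Spn, the sialomucin CD43 that Siglec1 can bind, was lower in interstitial than in BMDM by 1.93 on the log2 scale, at 27.0 to 55.7 CPM in interstitial against 138 to 175 CPM in BMDM. It was 1 of 4 protein ligands listed, of which 0 were higher and 3 lower in lining against BMDM (0 without library B), 0 higher and 1 lower in interstitial against BMDM, and 1 higher and 0 lower in lining against interstitial. For these 4 the shares over all tested genes are the same 43.5%, 44.8% and 5.79%.

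Genes that make, attach and remove sialic acid included calls in both directions against BMDM. Of 8 genes of sialic acid synthesis and turnover 7 passed the filter, with 2 higher and 1 lower in lining (43.5% of all genes were called) and 2 higher and 2 lower in interstitial (44.8% of all genes) against BMDM, and 0 called in lining against interstitial (1 at an unadjusted p under 0.05, and 1 called by each of DESeq2 and limma-voom). Their medians were 0.16, -0.061 and -0.013 on the log2 scale, and 5.79% of all genes were called in lining against interstitial. Cmah, which turns the human-type sialic acid Neu5Ac into Neu5Gc, was at 94.4, 106 and 122 CPM in lining, 179, 175 and 76.5 CPM in interstitial, and 3.84, 3.67 and 2.63 CPM in BMDM. It was higher than in BMDM by 4.99 ± 0.33 in lining and 5.40 ± 0.33 in interstitial on the log2 scale (adjusted p = 2.48e-07 and 1.57e-07). Npl, the lyase that breaks sialic acid down, was higher by 3.83 and 4.05, at 96.3 to 188 CPM in lining and 152 to 234 CPM in interstitial against 10.6 to 11.8 CPM in BMDM. Nans, the sialic acid synthase, was lower in lining (-0.95) and interstitial (-0.94), and Cmas, which activates sialic acid, was lower in interstitial (-0.94).

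Sialyltransferases attach sialic acid in the linkages that Siglecs tell apart. Of 20 such genes 12 passed the filter, and 6 were higher and 1 lower in lining against BMDM, with a median of 0.61, and 8 higher and 2 lower in interstitial against BMDM, with a median of 0.93. Without G, H or I, 5 of the 12 were higher in interstitial than in BMDM. Of all tested genes 43.5% in lining and 44.8% in interstitial were called against BMDM. St6gal1, which makes the alpha-2,6 linkage, was higher by 1.93 in lining and 1.78 in interstitial on the log2 scale, at 311 to 325 CPM in lining and 259 to 300.4 CPM in interstitial against 76.2 to 87.7 CPM in BMDM. St3gal1, which caps O-glycans, was higher by 1.82 and 1.84. St8sia6 had larger called values, 6.79 ± 1.46 in lining and 6.85 ± 1.46 in interstitial, but under 4 counts in BMDM. It could pass the filter only through joint libraries, so its direction was set in advance. St3gal5, which makes the ganglioside GM3, was lower in lining (-1.13) and interstitial (-3.36), at 170, 124 and 70.1 CPM in lining, 26.1, 33.6 and 16.7 CPM in interstitial and 245 to 280.0 CPM in BMDM. The joint groups differed in 3 of the 12 sialyltransferases (median of the 12, -0.0035), beside 5.79% of all tested genes. St3gal5 was higher in lining than in interstitial by 2.23 ± 0.31 (adjusted p = 0.00170) and St3gal2 by 0.97 (adjusted p = 0.00847, a call lost with only the 6 sorted libraries), and St3gal6 was lower by 2.14 ± 0.38 on the log2 scale (adjusted p = 0.00580), at 10.1 to 12.96 CPM in lining against 22.7 to 67.7 CPM in interstitial. Of the 5 sialidase genes 3 passed the filter, counting the partner Ctsa. Neu1, the lysosomal sialidase, was lower in lining (1.53-fold, adjusted p = 0.00285) and interstitial (adjusted p = 7.91e-05) than in BMDM, and Ctsa, its protective protein, was called higher in lining than in BMDM (0.44, a call lost if any of A, B, G, H and I was left out, with adjusted p up to 0.191). None of the 3 passed in lining against interstitial by edgeR (2 at an unadjusted p under 0.05, and 1 called by each of DESeq2 and limma-voom). Neither these levels nor the Siglec levels measure the sialic acid on the cells.

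**Figure D5:**
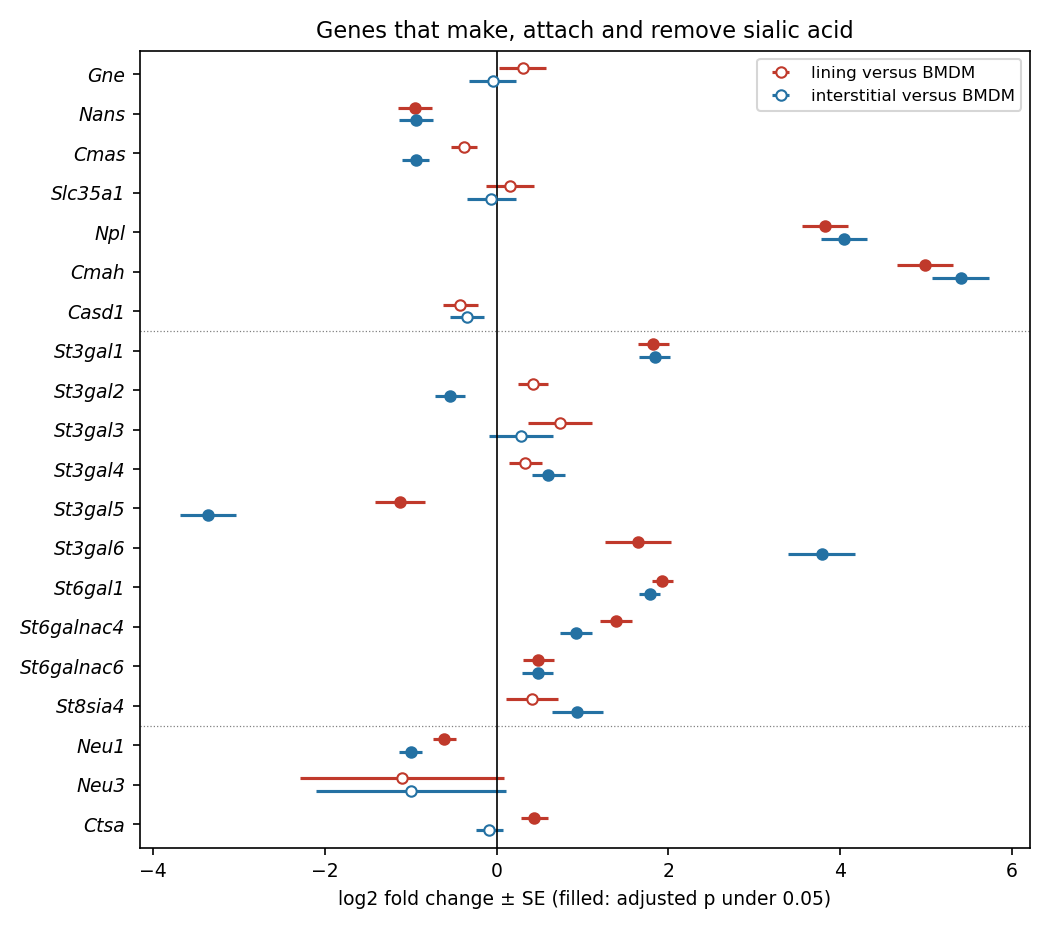
Log2 fold changes ± SE (horizontal axis) of 20 genes of sialic acid synthesis and turnover, sialyltransferases and sialidases, from top to bottom, in lining and interstitial against BMDM; filled points passed at an adjusted p under 0.05, and St8sia1 and St8sia6, with under 4 counts in a group, are left out. Among the genes plotted, Cmah and Npl lie farthest to the right, between 3.83 and 5.40, and St3gal5 farthest to the left in interstitial, at -3.36.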

How the data were processed

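Counts per gene were deposited by the authors. Per the file headers they were made with featureCounts 1.6.1 on exons grouped by gene identifier, counting reverse-stranded reads against Ensembl GRCm38 release 91, and the submitters' processing notes also name STAR 2.5.4a and cutadapt 1.15. Per the labels' protocols the libraries were TruSeq stranded mRNA from 500 ng RNA, read single-end over 101 bases. Without molecular identifiers PCR copies cannot be removed, so floors cover counting error only.

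The 9 columns were matched to samples by their names. Of 53465 identifiers 53274 matched a gene symbol and 191 did not. The filterByExpr rule of edgeR, with a minimum count of 10 and a minimum total of 15, kept 12610 genes. Libraries were TMM-scaled, and 1 edgeR 4.0.16 quasi-likelihood model (R 4.3.3, 6 residual degrees of freedom) of all 9 libraries gave the 3 comparisons, with p-values adjusted by Benjamini-Hochberg across those genes and a threshold of 0.05. The standard error was derived from the fold change and its quasi-likelihood F. The code was tested on simulated data.

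The 4 Siglecs are all named. From each list of related genes, up to 6 called genes with the lowest adjusted p per comparison may be named, others with values only, and for each Siglec the 5 genes nearest in profile. Members, lists and tests were chosen with earlier results of these data known. Alternatives were DESeq2 1.42.0, limma-voom 3.58.1, other scalings, other filters, only the 6 libraries compared and leaving out each library.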

Additional observations from a re-analysis of the deposited data

How the results depend on the processing

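Every fold change of the 4 Siglecs against BMDM kept its direction and its call in all 16 alternatives, of which 9 left out 1 library each. Between lining and interstitial, 1 Siglec (Siglec1) was called by edgeR, 2 (Siglec1 and Siglech) by DESeq2, 0 with library totals in place of TMM, 0 with only the 6 libraries compared, and 0 to 1 without single libraries. Over all genes 730 were called between lining and interstitial, against 1298 with DESeq2, 366 with only the 6 libraries compared and 396 to 888 without single libraries. The causes of these shifts were not tested. Where leaving out a library left a group with 2 samples, the model pooled the spread over groups. The mean CPM of all 4 Siglecs on plain library totals lay within 1 SD of the TMM value in each group. Depth limits the weak genes most, since 1 lining library needs 1.45 CPM to reach 3 counts. No paired analysis was made because no label pairs libraries. Whether lining and interstitial libraries came from the same animals is not given, and the tests treated all libraries as independent.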
